A study of Mus musculus with 19 samples.

Results

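Adipocytes given palmitic acid (PA) were compared with adipocytes given oleic acid (OA). The members of this comparison are the 4 arrays whose titles name PA treatment and the 3 whose titles name OA treatment, 7 of the 19 arrays of the study. They are described across 18820 genes, each represented by the brightest of the probe sets that carry 1 gene symbol. The cells were 3T3-L1, a mouse fibroblast line that becomes fat-storing after hormonal induction. All groups were differentiated with dexamethasone, IBMX and insulin, kept in insulin, and held without serum from day 7. PA has 16 carbons and no double bond, and OA has 18 carbons and 1 double bond, so the pair differs in chain length and in saturation together. Each acid was given at 250 µM for 48 h from day 8, dissolved in ethanol and carried in medium with 2% albumin. Control cells (n = 4) received the ethanol and albumin without an acid. The remaining groups received palmitoleic acid (PMA, n = 4), with 16 carbons and 1 double bond, or stearic acid (SA, n = 4), with 18 carbons and no double bond. OA has 3 arrays because amplification of RNA from a further replicate failed, per the study's design text. All cells came from 1 line, and the titles call the arrays biological replicates without saying what separated them, so the p-values measure the spread between these arrays.

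Palmitic acid is the main product of fatty acid synthesis and the most common saturated acid of animal fat. In many cultured cells an excess of it is known to feed ceramide synthesis, to strain the endoplasmic reticulum and to accompany inflammatory signalling. Oleic acid is made from stearic acid by stearoyl-CoA desaturase, is stored readily as triglyceride, and is often used as the well tolerated counterpart of palmitic acid. Adipocytes take up both acids, activate them with coenzyme A and store or oxidise them, and they also secrete adipokines, chemokines and the matrix that surrounds them. The comparison asks which transcripts differ between cells exposed to the common saturated acid and cells exposed to the common monounsaturated one, at the same dose and time.

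Most defining adipocyte markers were among the brightest genes in both groups. Adipoq, the adiponectin gene, had a mean log2 value of 12.20 with PA and 12.29 with OA, and Fabp4, the adipocyte fatty acid binding protein, 12.35 and 12.38. Both lay at the 99.9 percentile of all genes, and the lowest of these markers, Lep, at 75.5. On the first principal component, which held 31.2% of the variance, PA replicates 2 and 4 stood apart from the other arrays, at -27.4 and -13.8. In distance from the PA group mean over all genes, however, replicate 4 was the nearest PA array (0.088). Replicate 2 was the farthest (0.153). PA replicate 2 also had the highest array median (5.43, against 5.25 to 5.27 in OA) and the smallest interquartile range (3.39). The spread within the PA group (SD 0.138) exceeded that of the other groups (0.0951 to 0.111). The dimmest 33.3% of genes had a median difference of 0.06 and the brightest 33.3% one of -0.05. Of 53 markers of macrophages, endothelium, lymphocytes and muscle, 0 passed the limma test, 9 had an unadjusted p under 0.05 and 44 lay higher with PA. Over all 18820 genes, 4019 had an unadjusted p under 0.05 and 55.5% lay higher with PA. The mean level of the 53 markers per array ran from 4.80 to 4.99 with PA and from 4.78 to 4.84 with OA. Their median difference was 0.09, or 0.03 without PA replicates 2 and 4. In mean level, the defining markers ran from the 7.42 percentile of all genes (Ms4a1 of B cells) and 7.91 (Adgre1 of macrophages) through 54.0 (Cd68 of macrophages) to 84.2 (Des of muscle). The preadipocyte or fibroblast markers ran from 18.6 (Cd34) to 99.2 (Dlk1). The part of these shifts in the results was not tested. In such bulk samples, fewer cells of a type and less RNA per cell cannot be told apart.

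PA and OA cells differed in 362 of 18820 genes, which is 1.92% of those tested. Of these, 131 were higher with PA (0.696%) and 231 were lower (1.23%). The calls are from limma, fitted to all 19 arrays, at an adjusted p under 0.05, and 4019 genes had an unadjusted p under 0.05. The differences were small: the median size among called genes was 0.32 on the log2 scale, 19 exceeded 1.5-fold and 2 exceeded 2-fold. The standard error of a difference was 0.0740 for the median gene. Arrays of the groups did not overlap for 352 of the called genes, against 14.5% of all genes. Across all genes the median difference was 0.02. The count rested strongly on single arrays. It was 71 without PA replicates 2 and 4, which also makes the PA group smaller, and 65 of these genes were among the 362. A fit of the 7 PA and OA arrays alone called 8 genes, with 2742 at an unadjusted p under 0.05, and a fit with the replicate number as a block called 154.

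**Figure D1:**
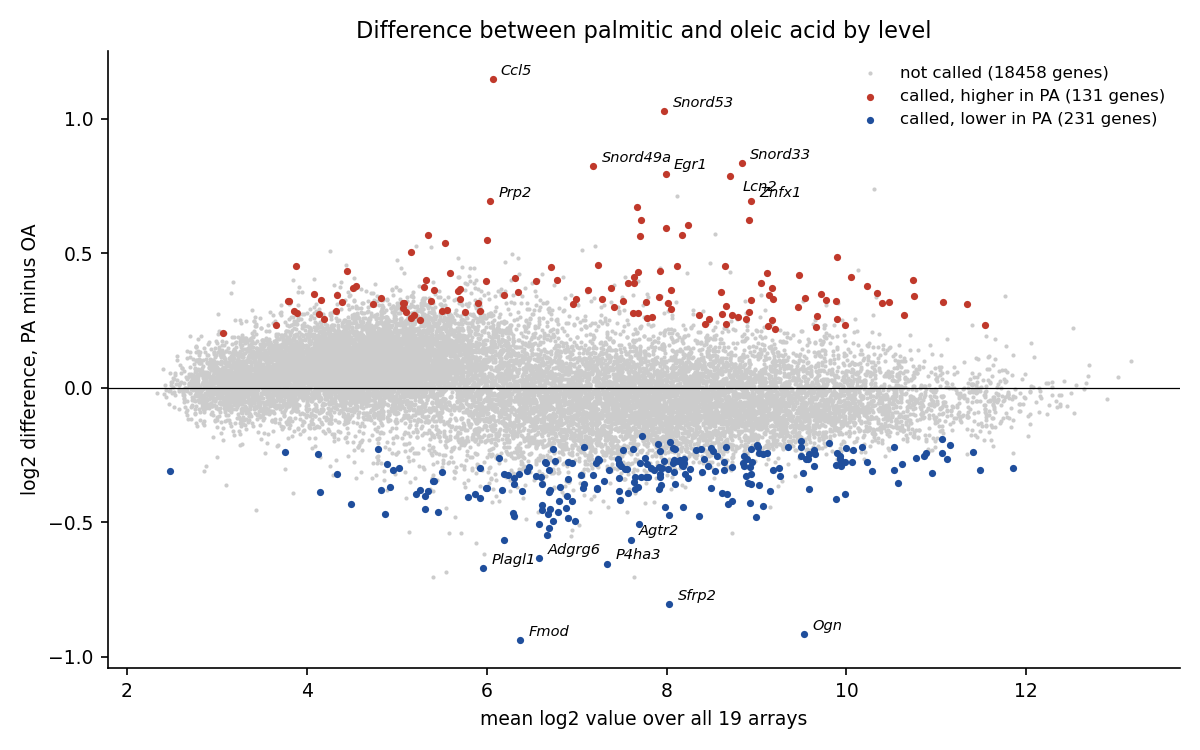
Log2 difference between PA and OA (vertical axis) against the mean log2 value over all 19 arrays (horizontal axis), 1 point a gene; red points are the 131 genes called higher with PA and blue points the 231 called lower, and grey points did not pass. Ccl5 stands highest at 1.15 and Fmod and Ogn lowest at -0.94 and -0.91, and most called genes lie within 0.5 of zero.

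The 10 largest falls and 10 largest rises were drawn from called genes whose PA and OA arrays did not overlap. Lack of overlap in these genes therefore follows from that choice. The largest falls were of genes of the extracellular matrix, the secreted scaffold of collagens, proteoglycans and glycoproteins that adipocytes lay down around themselves. Fmod (probe set 10349947) encodes fibromodulin, a small leucine-rich proteoglycan that binds collagen and shapes its fibrils. Its log2 values were 6.07, 5.84, 5.93 and 6.08 with PA and 7.01, 6.72 and 7.02 with OA. Every PA array lay below every OA array, and the difference was -0.94 ± 0.09 (SE; limma adjusted p = 3.99e-06), or 1.91-fold. Ogn, which encodes osteoglycin of the same family, read 9.08, 8.91, 9.21 and 9.11 with PA and 9.87, 10.10 and 10.01 with OA. Again the groups did not overlap (-0.91 ± 0.09, adjusted p = 4.20e-06). The control mean of Fmod (6.06) was close to the PA mean (5.98), whereas that of Ogn (9.43) lay between PA (9.08) and OA (9.99).

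Promoter windows of these genes are printed because they carry the largest falls and belong to 1 protein family. They run from 250 bases before to 30 bases from the annotated start on, 5′ to 3′ on the gene's strand, and come from RefSeq on GRCm38.p6. Fmod lies at chr1:134037004-134037283 (+) and Ogn at chr13:49607765-49608044 (+). Capitals mark the longest run of bases that both windows share.
Fmod: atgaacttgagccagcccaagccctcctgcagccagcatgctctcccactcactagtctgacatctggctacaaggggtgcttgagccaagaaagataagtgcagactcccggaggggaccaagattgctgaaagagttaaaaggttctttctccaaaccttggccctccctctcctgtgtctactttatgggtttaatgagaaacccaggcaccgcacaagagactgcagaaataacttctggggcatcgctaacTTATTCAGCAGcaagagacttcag
Ogn: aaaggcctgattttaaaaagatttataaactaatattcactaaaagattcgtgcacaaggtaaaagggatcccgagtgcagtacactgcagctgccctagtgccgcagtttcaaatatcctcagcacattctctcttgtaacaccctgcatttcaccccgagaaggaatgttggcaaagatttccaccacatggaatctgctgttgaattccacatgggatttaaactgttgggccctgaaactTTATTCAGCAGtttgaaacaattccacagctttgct
The shared run TTATTCAGCAG has 11 bases and begins 6 bases after the start of Fmod and 6 bases before that of Ogn. On either strand 10 of 32851 promoters in the table hold it (0.0304%). It was chosen by comparing these windows and is a description only.

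Of 13 measured small leucine-rich proteoglycans, 5 were lower with PA and 0 higher, where 1.23% of all genes were called lower and 0.696% higher. The median difference of the list was -0.13. Beside Fmod and Ogn the called members were Dcn, Lum and Prelp. Decorin, the Dcn product, regulates collagen fibrils and binds growth factors of the TGF-beta family, and its transcript was bright, at 11.29, 11.24, 11.45 and 11.27 with PA and 11.56, 11.64 and 11.65 with OA. The groups did not overlap, and the difference was -0.31 ± 0.06 (adjusted p = 0.0115). Lumican (Lum) differed by -0.38 ± 0.09 and Prelp by -0.21 ± 0.06 (adjusted p = 0.0381 and 0.0474). Without PA replicates 2 and 4, Dcn, Lum and Prelp did not pass (adjusted p = 0.142, 0.485 and 0.436), while Fmod and Ogn did. Dcn was also lost without OA replicate 3 (adjusted p = 0.0857), Lum without any 1 of 6 arrays (PA 2 and 4, OA 1 to 3, control 3; up to 0.148) and Prelp without any 1 of 14 (up to 0.166). The median of the list was -0.19 after cyclic loess and -0.21 with array medians centred, and 5 members were called lower under both. The other members included biglycan (Bgn, -0.07) and asporin (Aspn, -0.22), and neither passed.

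Among 35 crosslinkers, glycoproteins and matricellular proteins of the matrix, 5 were lower with PA and 2 were higher, with a median of -0.08. Over all genes 1.23% were called lower, 0.696% higher and 1.92% in either direction. P4ha3, a subunit of the prolyl hydroxylase that lets collagen helices form, read 6.94, 7.06, 6.94 and 7.01 with PA and 7.80, 7.48 and 7.64 with OA. The groups did not overlap (-0.65 ± 0.07, adjusted p = 1.25e-05). The other subunits P4ha1 and P4ha2 differed by -0.12 and -0.14 and did not pass. Lox, the lysyl oxidase that crosslinks collagen and elastin, was lower by -0.36 ± 0.07 (adjusted p = 0.0092). Postn (periostin), Thbs2 (thrombospondin 2) and Fbln1 (fibulin 1) differed by -0.30, -0.26 and -0.30, with adjusted p of 0.0114, 0.0152 and 0.0231. The pair of rises were Ccn1, a matricellular protein induced by growth signals (0.45 ± 0.09, adjusted p = 0.0174), and Prg4, the lubricin gene (0.57 ± 0.12, adjusted p = 0.0225). Of 28 collagen chains only Col11a1 passed (-0.22 ± 0.05, adjusted p = 0.0367), and the list's median was 0.02. Among 21 matrix proteases and inhibitors, Timp2, an inhibitor of metalloproteinases, and Plat, the tissue plasminogen activator, were lower (-0.31 and -0.42), and Mmp11, stromelysin 3, was higher (0.43 ± 0.07, adjusted p = 0.00416). P4ha3, Lox and Mmp11 passed whichever array was left out. The calls of the others were lost without OA replicate 3, and some also without PA replicate 4 or OA replicates 1 and 2, with adjusted p up to 0.136; Col11a1 was lost as well without PA replicate 2 or control replicate 3. Without PA replicates 2 and 4 together, Lox did not pass (adjusted p = 0.0882).

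The other large falls were of secreted and developmental genes. Sfrp2 encodes a secreted protein that binds Wnt ligands. It read 7.50, 7.87, 7.77 and 7.44 with PA and 8.41, 8.64 and 8.30 with OA, without overlap (-0.80 ± 0.11, adjusted p = 0.000385). It was the 1 member called among 23 Wnt ligands and secreted modulators, where 1.92% of all genes were called. The list's median was 0.13, but -0.04 without PA replicates 2 and 4 and 0.05 after cyclic loess; with array medians centred it was 0.04. Plagl1, an imprinted zinc finger factor that restrains growth, read 5.53, 5.74, 5.68 and 5.57 with PA and 6.26, 6.15 and 6.49 with OA. The arrays did not overlap (-0.67 ± 0.08, adjusted p = 0.000223), and the call held whichever array was left out. Adgrg6, an adhesion G protein-coupled receptor, differed by -0.63 ± 0.11 (adjusted p = 0.00425) and Itgbl1, an integrin beta-like secreted protein, by -0.55 ± 0.10 (adjusted p = 0.0105). Of these 4, Itgbl1 alone lost its call without a single array, OA replicate 2 (adjusted p = 0.0536).

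Agtr2, the type 2 angiotensin receptor, read 6.89, 7.48, 7.51 and 7.17 with PA and 7.84, 7.70 and 7.94 with OA. The PA arrays were widely spread without reaching the OA arrays, and the difference was -0.56 ± 0.12 (adjusted p = 0.0176). Gys2, a glycogen synthase, was lower with PA by -0.52 ± 0.10 (adjusted p = 0.0143), and Zbtb33, the methyl-CpG binding factor Kaiso, by -0.51 ± 0.09 (adjusted p = 0.00778). Gys2 and Zbtb33 did not pass without PA replicates 2 and 4 (adjusted p = 0.133 and 0.124), nor did Adgrg6 (adjusted p = 0.0744). Agtr2 was lost without PA replicate 4, OA replicate 1 or OA replicate 3 (up to 0.111) and Gys2 without OA replicate 3 (0.112). Prokr1, a prokineticin receptor gene, also had a large fall (-0.57 ± 0.12, adjusted p = 0.0174), but its arrays overlapped: OA replicate 2, at 6.10, lay below PA replicate 2, at 6.17.

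The largest rise was of Ccl5 (probe set 10389207), a chemokine that attracts T cells and monocytes. Its values were 7.21, 6.40, 6.65 and 6.56 with PA and 5.64, 5.68 and 5.36 with OA. PA replicate 1 was the highest, and the lowest PA array lay above the highest OA array, as the choice of genes without overlap requires. The difference was 1.15 ± 0.14 (adjusted p = 0.000124), or 2.22-fold, and without PA replicates 2 and 4 it was 1.38. Cxcl10, a chemokine induced by interferon, had the same highest array: 6.26, 5.45, 5.75 and 5.61 with PA and 5.33, 5.19 and 5.16 with OA. The groups did not overlap (0.54 ± 0.12, adjusted p = 0.0224). The call was lost without OA replicate 3 (adjusted p = 0.115), without OA replicate 2 and after cyclic loess (adjusted p = 0.0505).

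The promoter window of Cxcl10 is printed because interferon and NF-kB elements in it are textbook examples. It lies at chr5:92348860-92349139 (-), from the same table, and capitals mark every match to a motif that was searched.
Cxcl10: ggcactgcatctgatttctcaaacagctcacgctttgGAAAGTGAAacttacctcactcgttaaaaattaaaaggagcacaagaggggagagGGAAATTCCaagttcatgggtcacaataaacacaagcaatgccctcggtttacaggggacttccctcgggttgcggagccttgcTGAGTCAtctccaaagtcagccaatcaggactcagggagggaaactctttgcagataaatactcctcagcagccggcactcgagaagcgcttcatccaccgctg
The motifs searched on both strands, in the table's windows from 250 bases before to 50 after the start, were TTCNNTTTC, the core of the interferon response element, GGANNTTCC for NF-kB, TGATGNAA for the ATF4 element and TGANTCA for AP-1. The window holds GAAAGTGAA, the first motif on the other strand, from -213 to -205, GGAAATTCC from -158 to -150 and TGAGTCA from -74 to -68, counted from the start as 0. No matches overlap another motif, and TGATGNAA has no match in this window. Of 32851 promoters, 8.56% hold the first motif, 4.26% the second, 3.97% the third and 7.81% the fourth. The search was also made for lists with at least 5 members called in 1 direction. None of the 3 matched proteoglycan promoters (Fmod, Ogn and Prelp) holds any of the motifs. Of the 4 matched promoters of matrix crosslinkers and glycoproteins called lower, that of Postn holds the first motif. Among the 6 promoters of called ribosomal protein genes, that of Rps12 holds the NF-kB motif. A match is a description of the window and not a site.

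Of 31 chemokines and receptors, 2 were higher with PA and 2 lower, and 24 lay above 0, where 55.5% of all genes did. Of all genes, 0.696% were called higher and 1.23% lower. The list's median was 0.12, and it was 0.05 after cyclic loess, 0.03 with array medians centred and 0.08 without PA replicates 2 and 4. The falls were of Cxcl12, which retains stem and immune cells through the receptor CXCR4 (-0.33 ± 0.05, adjusted p = 0.00213), and Cxcl5, a neutrophil attractant (-0.28 ± 0.07, adjusted p = 0.0461). Ccl2, the monocyte chemokine, was not called: it differed by 0.23 with a 95% interval from 0.04 to 0.43. Of 35 cytokines and receptors only Il2ra, the alpha chain of the interleukin 2 receptor, passed, and it was lower (-0.42 ± 0.07, adjusted p = 0.00445). Il2ra missed the threshold without OA replicate 3 (adjusted p = 0.0525), and Cxcl5 missed it without any 1 of 14 arrays (up to 0.202). The cytokine Il6 differed by 0.00 with an interval from -0.21 to 0.21.

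Lcn2 encodes lipocalin 2, an acute phase protein that binds bacterial siderophores and is secreted by adipocytes. Its values were 8.85, 8.73, 9.02 and 8.82 with PA and 8.12, 7.96 and 8.13 with OA. The groups were well apart (0.79 ± 0.10, adjusted p = 0.000182), but the control mean was 9.11, above both groups. Hp, haptoglobin, was the other of 19 acute phase genes that passed (0.32 ± 0.08, adjusted p = 0.0364), though not without PA replicate 4, OA replicate 2 or OA replicate 3 (up to 0.147). Among all genes 1.92% were called. Ptgs2, the inducible cyclooxygenase that starts prostaglandin synthesis, read 7.51, 7.11, 7.47 and 7.34 with PA and 6.97, 6.94 and 6.80 with OA. It was the only called gene among 16 of prostaglandin synthesis and reception (0.46 ± 0.08, adjusted p = 0.00416), and it passed whichever array was left out. Its PA mean (7.36) was near that of control cells (7.34).

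Of 32 genes of Toll-like receptor and NF-kB signalling, Nfkb2, an NF-kB subunit, and Bcl3, an atypical NF-kB inhibitor protein, were higher (0.26 ± 0.07 and 0.31 ± 0.07, adjusted p = 0.0406 and 0.0327). The list's median was -0.05. For comparison with this and the next lists, 0.696% of all genes were called higher and 1.92% in either direction. Of 49 interferon-stimulated genes only Ifi27l2a passed, at 8.97, 9.18, 9.25 and 9.26 with PA and 8.60, 8.36 and 8.67 with OA. All PA arrays were above all OA arrays (0.62 ± 0.11, adjusted p = 0.00501). Tap2, a peptide transporter of antigen presentation, was the 1 of 20 genes of that process to pass (0.28 ± 0.06, adjusted p = 0.0279). Ifi27l2a kept its call whichever array was left out, but not without PA replicates 2 and 4 together (0.0616). Bcl3 and Tap2 lost theirs without PA replicate 4, OA replicate 2 or OA replicate 3, Tap2 also without PA replicate 2, and Nfkb2 without any 1 of 12 arrays, with adjusted p up to 0.187.

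Some genes that respond quickly to growth factors were higher with PA than with OA. Egr1 (probe set 10454782), a zinc finger transcription factor, read 8.46, 8.53, 8.27 and 8.33 with PA and 7.58, 7.60 and 7.62 with OA. Within each group the arrays were close, and the groups stood far apart (0.80 ± 0.07, adjusted p = 3.99e-06). Of 26 immediate early genes, 3 were higher with PA and 0 lower, with a median of 0.08. The share of all genes called higher was 0.696%. Junb, a subunit of AP-1, read 7.03, 6.85, 6.98 and 6.89 with PA and 6.53, 6.47 and 6.46 with OA (0.45 ± 0.07, adjusted p = 0.00166). Ier2 was close to the threshold (0.41 ± 0.11, adjusted p = 0.0496), with a highest PA array of 6.78, and was lost without any 1 of 15 arrays (up to 0.171). Fos and Atf3 differed by 0.30 and 0.25 without passing (adjusted p = 0.0962 and 0.0738). The list's median was 0.09 after cyclic loess and 0.00 with array medians centred, where Egr1 and 1 further gene were called. Differences from control with PA and OA were 0.05 and -0.74 for Egr1, 0.16 and -0.29 for Junb, and -0.04 and -0.45 for Ier2.

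Among 19 feedback genes of the ERK pathway, Dusp6, the phosphatase that switches ERK off, and Ereg, the ligand epiregulin of the EGF receptor, were higher and 0 lower. The share of all genes called higher was 0.696%. Dusp6 read 8.21, 8.33, 8.44 and 8.43 with PA and 7.89, 7.88 and 7.93 with OA. The arrays did not overlap (0.45 ± 0.07, adjusted p = 0.00198), and its call held whichever array was left out. Ereg differed by 0.36 ± 0.08 (adjusted p = 0.0288), with PA values from 5.61 to 5.90 and OA values from 5.35 to 5.48, and was lost without PA replicate 2, OA replicate 2 or OA replicate 3 (up to 0.131). Differences from control with PA and OA were 0.16 and -0.29 for Dusp6 and 0.03 and -0.33 for Ereg.

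Some stress genes passed the test, all of them higher with PA, where 0.696% of all genes were called higher. Of 33 genes of the integrated stress response, which adapts translation to amino acid and endoplasmic reticulum stress, 3 were higher and 0 lower. Slc7a11, the cystine importer, read 7.79, 7.50, 7.70 and 7.43 with PA and 7.26, 7.35 and 7.03 with OA (0.39 ± 0.09, adjusted p = 0.0263). Trib3, a pseudokinase that restrains AKT, differed by 0.35 ± 0.07 and Psph, of serine synthesis, by 0.26 ± 0.06 (adjusted p = 0.0159 and 0.0381). The median of the list was 0.05 as deposited, and -0.03 with array medians centred. Of 33 chaperones and XBP1 targets of the endoplasmic reticulum, Sec61b, a subunit of the translocation channel, and Sdf2l1 were higher (0.43 ± 0.07 and 0.33 ± 0.08, adjusted p = 0.00445 and 0.0356). The central chaperone Hspa5 differed by 0.12 with an interval from 0.02 to 0.22 and did not pass. Among 30 NRF2 targets, Srxn1, which repairs peroxiredoxins, passed beside Slc7a11 (0.25 ± 0.06, adjusted p = 0.0434). Hspb1 and Dnajb1 were the 2 of 18 heat shock genes that passed (0.35 ± 0.06 and 0.28 ± 0.06, adjusted p = 0.00827 and 0.0233). Of the other probe sets of Hspb1, 1 read 0.35 and 1 read -0.06. Gadd45b, induced by genotoxic stress, was the 1 of 31 genes of p53 and cell death called (0.40 ± 0.09, adjusted p = 0.024). Of 32 genes of hypoxia and energy stress, 0 passed with limma and 9 had an unadjusted p under 0.05. Sec61b alone of these kept its call whichever array was left out, but not without PA replicates 2 and 4 together (adjusted p = 0.0566). The others were lost without at least 1 OA array, all but Sdf2l1 without OA replicate 3, with adjusted p up to 0.187.

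Several lists of genes that handle fatty acids or sterols held no call, where 1.92% of all genes were called. None was called with limma among 27 genes of uptake, binding and activation, 25 of mitochondrial oxidation, 19 of peroxisomal oxidation, 20 of triglyceride synthesis, 17 desaturases and elongases, 20 of cholesterol synthesis and uptake or 15 LXR targets. An unadjusted p under 0.05 was seen for 3, 7, 4, 2, 3, 5 and 3 of them in turn. The 95% interval of the difference lay within 0.5 of zero for 27 of 27, 25 of 25, 19 of 19, 20 of 20, 16 of 17, 20 of 20 and 15 of 15 of them in turn. Over all 18820 genes, 18132 had such an interval and 4019 had an unadjusted p under 0.05. The counts therefore do not show that the listed genes differed less than others. Scd1, the desaturase that turns palmitic into palmitoleic and stearic into oleic acid, read 12.92, 12.81, 12.93 and 12.83 with PA and 12.85, 12.96 and 12.94 with OA. The arrays overlapped, and the difference of -0.04 had an interval from -0.15 to 0.06. Cd36, the fatty acid translocase, differed by -0.12 (interval -0.24 to 0.00), Plin2, which coats lipid droplets, by -0.05 (-0.15 to 0.05) and Fasn, fatty acid synthase, by -0.05 (-0.16 to 0.07).

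Cpt1a, the carnitine acyltransferase that admits fatty acids to mitochondria, came closest of the panel of lipid genes. It read 9.05, 8.97, 9.09 and 9.07 with PA and 9.21, 9.29 and 9.27 with OA. The groups did not overlap, but the adjusted p of the difference of -0.21 ± 0.06 was 0.050002, just above the threshold, and it passed under 9 of 30 alternatives. Single genes beside these lists were called. Cidea, a lipid droplet protein known from thermogenic fat, was lower by -0.41 ± 0.09 (adjusted p = 0.0227), and Pnpla3, a lipid droplet acyl hydrolase, by -0.22 ± 0.05 (adjusted p = 0.0367). Of 30 genes of ceramide and sphingolipid synthesis, only Ugcg, which adds glucose to ceramide, passed (-0.37 ± 0.09, adjusted p = 0.0321). Among all genes 1.92% were called. Cidea, Pnpla3 and Ugcg each lost their call without PA replicate 4, without OA replicate 3 and without at least 1 further PA or OA array (up to 0.180). Sptlc2, a subunit of the enzyme that joins palmitoyl-CoA to serine, differed by 0.01 with an interval from -0.12 to 0.15.

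Of 21 adipocyte markers 0 passed with limma, 4 had an unadjusted p under 0.05, and all 21 had an interval within 0.5 of zero. For comparison with this and the next lists, 1.92% of all genes were called. Among 27 adipogenic transcription factors, Ebf1 and Ebf2, which commit precursors to the adipocyte lineage, and Ppargc1a, the coactivator of mitochondrial genes, were lower (-0.28, -0.27 and -0.27). Cebpd, an early factor of differentiation, was higher (0.29 ± 0.07, adjusted p = 0.0406). A second probe set of Ebf2 read 0.03. Pparg itself differed by -0.11, with an interval from -0.21 to -0.01, and did not pass. Among adipokines and hormones, Nrg4, a secreted ligand of ErbB4, was the 1 of 22 called (-0.33 ± 0.08, adjusted p = 0.0426). Pik3r1, the regulatory subunit of phosphoinositide 3-kinase, Pygb, a glycogen phosphorylase, and Bckdhb, of branched-chain amino acid breakdown, were lower by -0.29, -0.23 and -0.19. Of 17 markers of preadipocytes and fibroblasts, Zfp521, an inhibitor of adipogenesis, and Fap were lower (-0.26 and -0.38, adjusted p = 0.0312 and 0.0174). All 10 genes called in these lists lost their call without OA replicate 2, without OA replicate 3 and without at least 1 PA array (adjusted p up to 0.219).

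The other lists held the following calls, where 1.92% of all genes were called. Of 22 thermogenic genes Cidea and Ppargc1a were the 2 called, and Cidea was also the 1 called of 28 PPAR targets and of 23 genes of lipid droplet coats and lipases. Pnpla3 was the 1 called of 19 genes of lipogenesis. Of 34 genes of insulin signalling and glycolysis, Trib3 was higher and Pik3r1 and Pygb lower. Of 63 genes of the respiratory chain and ATP synthase Ndufa4, a subunit of complex IV, was higher (0.27, adjusted p = 0.0412), and of 34 genes of the TGF-beta and BMP pathway the ligand Tgfb3 was lower (-0.25, adjusted p = 0.0447). Ndufa4 and Tgfb3 each lost their call without any 1 of 12 arrays (up to 0.135). With limma 0 genes passed among 22 contractile and SRF target genes, 19 receptors of fatty acids and metabolites, 28 genes of DNA replication and 30 proteasome subunits, where 5, 5, 5 and 3 had an unadjusted p under 0.05.

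**Figure D2:**
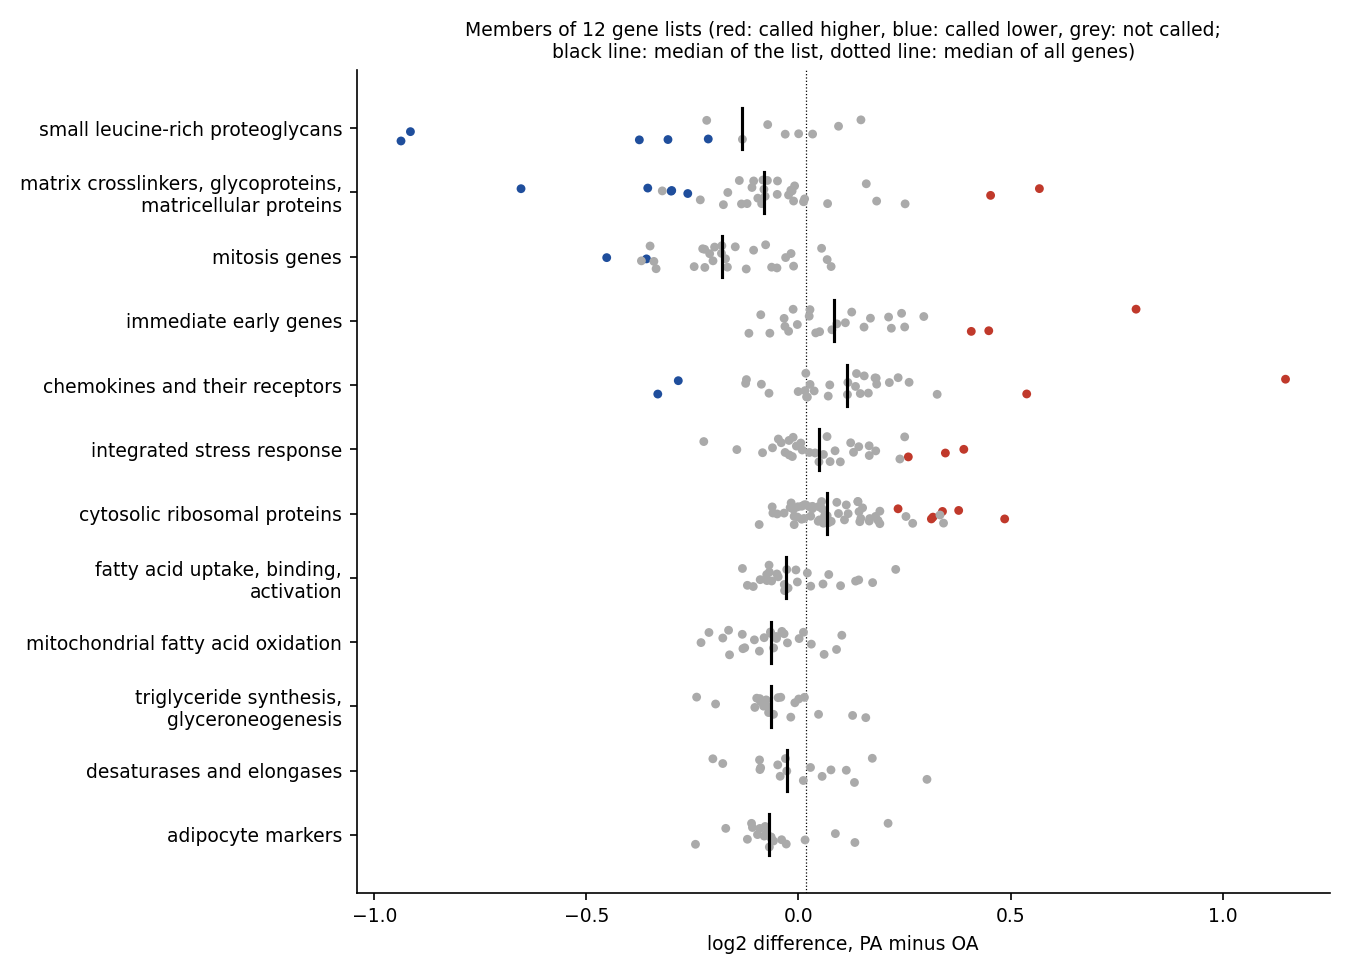
Log2 difference between PA and OA (horizontal axis) for the members of 12 gene lists, 1 point a gene, with the list's median as a black line and the median of all genes as a dotted line. Called members are red (higher with PA) or blue (lower); the proteoglycans reach -0.94, the chemokines reach 1.15, and the lists of fatty acid uptake, oxidation, triglyceride synthesis, desaturases and adipocyte markers hold grey points only.

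Mitosis genes lay lower with PA: of 29 measured, 3 lay above 0, and the median was -0.18. Over all genes 55.5% lay above 0, the median was 0.02 and 1.23% were called lower. Mki67, a marker of cycling cells, read 6.33, 6.10, 6.31 and 6.05 with PA and 6.55 in each OA array (-0.36 ± 0.09, adjusted p = 0.0454). Top2a, the topoisomerase that untangles chromosomes, was the other called gene (-0.45 ± 0.11, adjusted p = 0.0393). Its dimmer probe sets read -0.04 and -0.07. The median was -0.11 without PA replicates 2 and 4, where neither gene passed (adjusted p = 0.504 and 0.485), and -0.20 after cyclic loess. Mki67 was lost without any 1 of 12 arrays and Top2a without any 1 of 8, with adjusted p up to 0.149.

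Of 59 cytosolic ribosomal protein genes, 6 were higher and 0 lower, with a median of 0.07. Over all genes 0.696% were called higher and the median was 0.02. Rpl11 read 10.83, 10.92, 10.91 and 10.96 with PA and 10.68, 10.47 and 10.54 with OA (0.34 ± 0.06, adjusted p = 0.00459). Its 5 dimmer probe sets gave 0.27 to 0.34. Rps3 differed by 0.49, Rps24 by 0.38, Rpl13a by 0.32, Rps12 by 0.31 and Rpl35 by 0.23. Such genes have many near-identical copies in the genome, so the probe sets of 1 gene may measure several. After cyclic loess 13 members were called higher, and with array medians centred 4 were, while the median turned to -0.02. Without PA replicates 2 and 4 the median was 0.13 and 2 members passed. Rpl11 kept its call whichever array was left out, and the other 5 lost theirs without OA replicate 3 and at least 1 further array (up to 0.112).

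Small nucleolar RNAs, which guide the chemical modification of ribosomal RNA, were grouped by their RefSeq biotype after their values were seen. Of 58, 9 were higher with PA and 0 lower, with a median of 0.20. Over all genes 0.696% were called higher and the median was 0.02. As the group was formed after its values were seen, its count is a description only. Snord53 read 8.51, 8.69, 8.74 and 8.06 with PA and 7.51, 7.18 and 7.73 with OA. The groups did not overlap, but the spread was wide (1.03 ± 0.23, adjusted p = 0.024). Snord33 differed by 0.84 ± 0.21, Snord49a by 0.82 ± 0.21 and Snord15b by 0.67 ± 0.16, with adjusted p of 0.0453, 0.0496 and 0.0367. OA replicate 2 was the lowest of the PA and OA arrays for each of these 4. The control arrays alone ran from 7.45 to 8.73 for Snord53. Most such RNAs sit in introns of other genes. By the RefSeq annotation Snord33 lies inside Rpl13a and Snord15b inside Rps3, both called (0.32 and 0.49), whereas Snord53 lies inside Wdr43 (0.04) and Snora62 inside Rpsa (0.08), neither of them called. The others called were Snora44, Snora61, Snora73a and Snord35b, at 0.40 to 0.61. The median was 0.17 after cyclic loess and 0.11 with array medians centred. Without PA replicates 2 and 4 it was 0.33, and Snora73a was the 1 of the 9 that passed. All 9 lost their call without OA replicate 2 and without OA replicate 3 (up to 0.191).

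The remaining large rises were of unrelated genes. Znfx1, a helicase-like protein of antiviral defence, read 9.22, 9.18, 9.38 and 9.31 with PA and 8.55, 8.60 and 8.58 with OA (0.69 ± 0.08, adjusted p = 4.64e-05). Its other probe set, 10489850, differed by -0.16, so the probe sets of this gene disagree. The uncharacterised transcript 5730408K05Rik differed by 0.62 ± 0.12 (adjusted p = 0.0114). Prp2, a proline-rich protein gene, read 5.95, 7.04, 6.37 and 6.79 with PA and 5.82, 5.94 and 5.77 with OA. PA replicates 2 and 4 were its highest arrays, and without them the difference of 0.69 fell to 0.32 (adjusted p = 0.563). It was lost without any 1 of 10 arrays, and 5730408K05Rik without OA replicate 2 (adjusted p = 0.0710).

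Levels in the other groups show on which side of the vehicle the pair lay. Comparisons with control share the control arrays, so their values are given side by side. The 131 genes higher with PA than with OA had a median difference from control of 0.11 with PA and -0.22 with OA, and the 231 lower genes had -0.11 and 0.21. For the same genes the medians with SA were -0.09 and 0.09 and with PMA -0.06 and 0.12. Over all genes the medians were 0.03 with PA and 0.02 with OA. Fmod differed from control by -0.08 ± 0.08 with PA and 0.86 ± 0.09 with OA, Egr1 by 0.05 ± 0.07 and -0.74 ± 0.07, and Znfx1 by 0.05 ± 0.07 and -0.64 ± 0.08. For these 3 genes OA and not PA was away from control, and SA and PMA lay on the same side as OA. The differences from control with SA and PMA were 0.39 and 0.55 for Fmod, -0.60 and -0.57 for Egr1, and -0.32 and -0.57 for Znfx1. Ccl5 lay on both sides, at 0.77 ± 0.13 with PA and -0.38 ± 0.14 with OA, and so did Ogn, at -0.36 ± 0.08 and 0.56 ± 0.09. Lcn2 was below control in both, by -0.25 ± 0.09 and -1.04 ± 0.10.

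**Figure D3:**
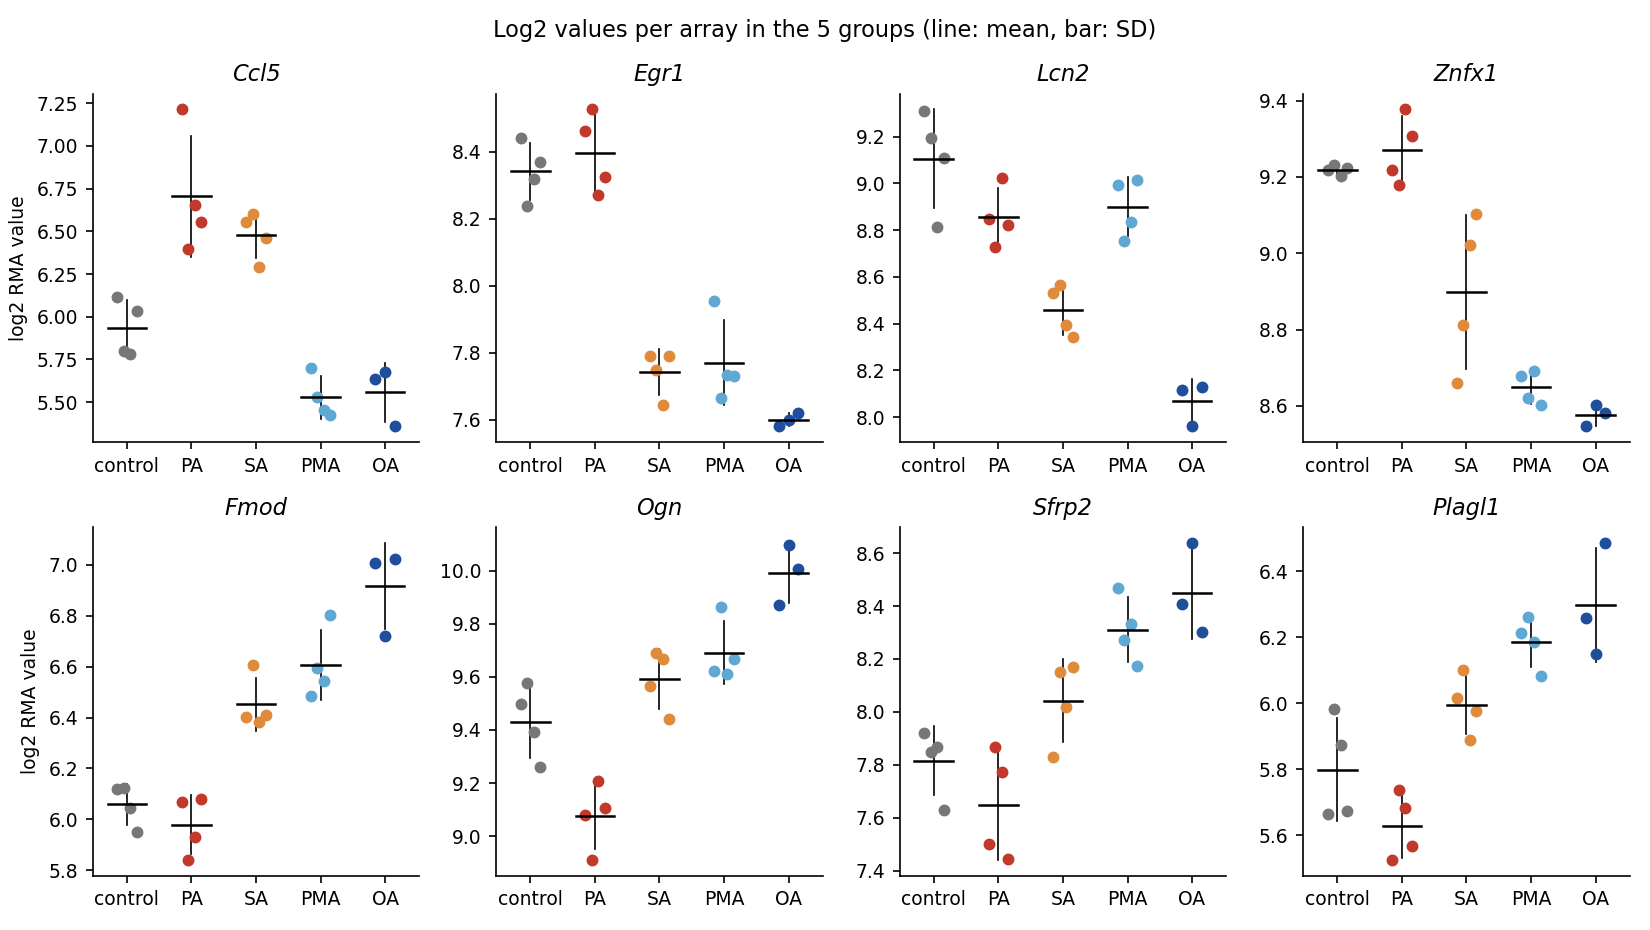
Log2 RMA values (vertical axis) of 8 genes with large differences, 1 point an array, in control, PA, SA, PMA and OA cells (horizontal axis), with the group mean as a line and its SD as a bar. The 8 genes were drawn from called genes whose PA and OA arrays do not overlap, so that separation comes from the choice. Control cells lie by the PA arrays for Egr1, Znfx1 and Fmod, and between PA and OA for Ccl5 and Ogn.

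PA and OA are joined by acids that differ from each of them by 1 structural feature. From PA to SA the chain grows at no double bond, and from PA to PMA the double bond is added at 16 carbons. For Ccl5 the difference of PA minus PMA was 1.18 and that of SA minus OA 0.92, while PA minus SA was 0.23 and PMA minus OA -0.03. The mean levels were 6.71 with PA, 6.48 with SA, 5.53 with PMA and 5.56 with OA. Lcn2 had another order: PA minus PMA was -0.04, SA minus OA 0.39, PA minus SA 0.40 and PMA minus OA 0.83. For Egr1 PA stood alone, at 0.63 above PMA and 0.65 above SA, while SA minus OA was 0.14 and PMA minus OA 0.17. Every step of Fmod had the same sign, with PA minus PMA at -0.63, PA minus SA at -0.47, SA minus OA at -0.46 and PMA minus OA at -0.31. These steps share arrays with PA against OA and are values only.

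A test of whether the effect of the double bond depends on chain length, in the same limma fit, called 1 gene of 18820 (0.00531%), with 986 at an unadjusted p under 0.05. That gene was BC023105, an uncharacterised transcript, a gene not called between PA and OA (means 4.62 and 4.66). PMA cells had the highest mean, at 5.68, and control cells 5.03.

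Stearic and palmitoleic acid form the other saturated and monounsaturated pair, on 8 arrays that PA against OA does not use. Here the saturated acid has the longer chain. SA and PMA differed in 46 genes (0.244%), 17 higher and 29 lower with SA, with 1660 at an unadjusted p under 0.05. Of the 131 genes higher with PA, 48 lay higher with SA than with PMA (36.6%), against 25.1% of all genes. Of the 231 lower with PA, 154 lay lower with SA (66.7%), against 74.9% of all genes. Over the 362 called genes the Pearson correlation of the differences was 0.05, and over all 18820 genes it was -0.16. These correlations are across genes, which are not independent replicates, and are given as a description.

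Called in both pairs were 14 genes, which is 3.87% of the 362 and 30.4% of the 46. The saturated acid lay on the same side for 7: Ccl5 (1.15 and 0.95), Slc7a11 (0.39 and 0.38), Ereg (0.36 and 0.36), Wfdc21 (0.36 and 0.35) and Tes (0.28 and 0.30) were higher, and Agtr2 (-0.56 and -0.57) and Osr2 (-0.43 and -0.53) were lower. Wfdc21 encodes a small secreted protein with a protease inhibitor fold, Tes a focal adhesion protein and Osr2 a developmental zinc finger factor. It lay on opposite sides for the other 7. Lcn2 (0.79 and -0.44), Prg4 (0.57 and -0.69), Mmp11 (0.43 and -0.31) and Trib3 (0.35 and -0.35) were higher with PA than OA and lower with SA than PMA. Il2ra (-0.42 and 0.38), B3galt2, a galactosyltransferase (-0.37 and 0.38), and Pnpla3 (-0.22 and 0.27) ran the other way. In each of these 7 genes the means of both 16-carbon acids lay on 1 side of the means of both 18-carbon acids, which choosing genes of opposite sign favours. In Lcn2 the mean levels were 8.86 with PA and 8.90 with PMA, the 16-carbon acids, against 8.46 with SA and 8.07 with OA, the 18-carbon ones. Without single arrays, the PA against OA call of Tes was lost for PA replicate 4, OA replicate 2 or OA replicate 3, and that of Osr2 for any 1 of 12 arrays (adjusted p up to 0.205).

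**Figure D4:**
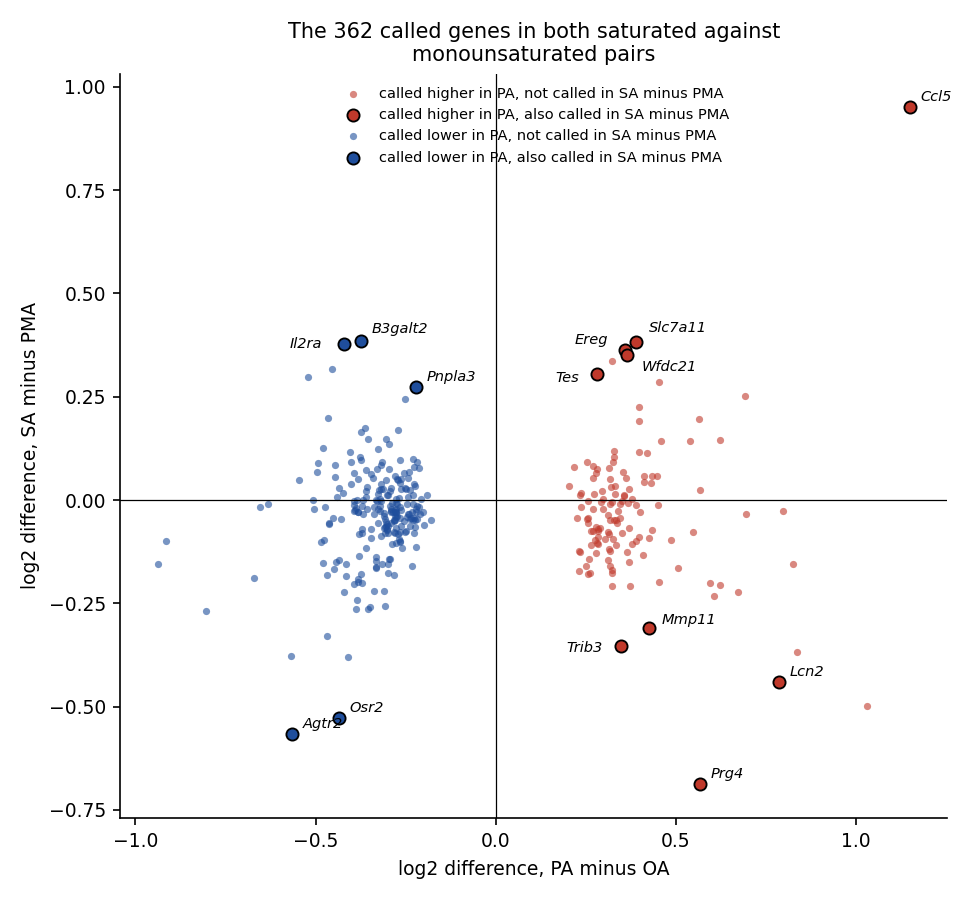
Log2 difference of PA minus OA (horizontal axis) against that of SA minus PMA (vertical axis) for the 362 genes called in PA against OA; black-edged and named points are the 14 called in both. Ccl5 stands alone at the upper right (1.15 and 0.95), and 7 of the 14 named genes lie in quadrants of opposite sign, among them Lcn2 and Prg4.

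The number of genes called depended on which array was left out. It was 1541 without PA replicate 1, 638 without PA replicate 3, 180 without PA replicate 2, 99 without PA replicate 4, 174 without OA replicate 1, 122 without OA replicate 2 and 53 without OA replicate 3. Leaving out 1 of the control, PMA or SA arrays gave 265 to 405. Of 108 called genes followed one by one, 25 passed whichever of the 19 arrays was left out, and 80 lost their call without OA replicate 3, 67 without OA replicate 2, 59 without PA replicate 4, 42 without PA replicate 2 and 41 without OA replicate 1. Egr1, Fmod, Lcn2, Ogn, P4ha3, Plagl1 and Znfx1 passed under all 30 alternatives. Ccl5 and Sfrp2 passed under 29, missing only with the 7 PA and OA arrays alone (adjusted p = 0.0508 for both).

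**Figure D5:**
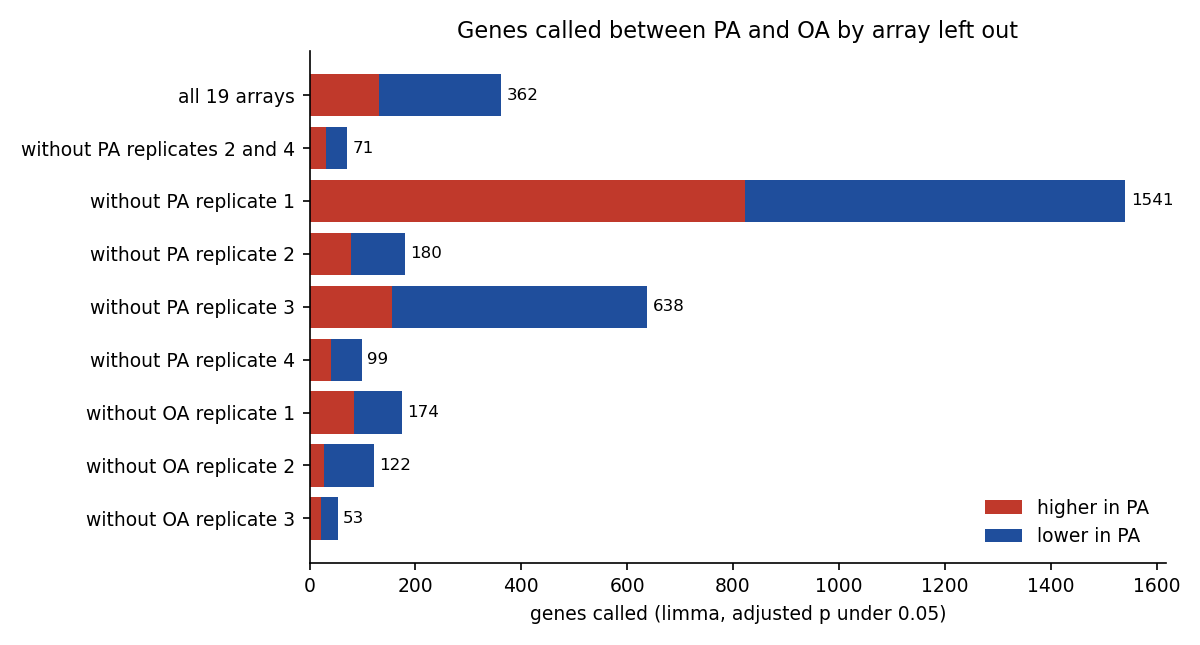
Number of genes called between PA and OA (horizontal axis; limma, adjusted p under 0.05) with all 19 arrays, with single PA or OA arrays left out and with PA replicates 2 and 4 left out together, split into genes higher (red) and lower (blue) with PA. The count runs from 53 without OA replicate 3 to 1541 without PA replicate 1, beside 362 with all arrays.

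Probe sets with no gene symbol or several were tested apart. Of 14338, 11 passed (0.0767%), 8 higher and 3 lower with PA. For 44 of the called genes the array holds 78 dimmer probe sets, of which 62 pointed the same way as the one reported and 16 the other way, with a median ratio of the differences of 0.76.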

How the data were processed

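Total RNA of 19 samples was hybridised to Affymetrix Mouse Gene 1.1 ST arrays, 1 sample an array. The deposited values are log2 expression values per probe set that the authors made with RMA, using R 2.15.0 and affy 1.34.0, per the submitters' processing notes; RMA subtracts background, makes the arrays' distributions alike and summarises probes, so a shift shared by all genes is largely removed. Groups came from the sample titles.

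From these values, the brightest probe set by mean over all arrays stood for each gene with exactly 1 symbol in the platform annotation, leaving 18820 genes. Differences were tested with limma 3.58.1 (R 4.3.3) on the log2 values as deposited, in 1 fit over the 5 groups of 19 arrays, with no covariate. Benjamini-Hochberg adjustment ran over all 18820 genes and a gene with an adjusted p under 0.05 was called. Intervals are 95% intervals from the same fit, and tests are two-sided. Tables and figures were made with Python 3.11.15. The fit was tested on simulated data. The number of arrays limits the precision, and arrays give no read depth.

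Genes named are the 10 largest called rises and the 10 largest called falls among genes whose PA and OA arrays did not overlap, up to 4 called members of each list, and a panel of lipid and marker genes. Other named genes were chosen after their values were seen: called members of a list beyond 4, genes called in both pairs, uncalled relatives of called genes, Prokr1, the small nucleolar RNAs and the families of the closing section. The comparison and the gene lists were chosen with earlier results of these data known. Alternatives were other probe set rules, cyclic loess, centred medians, other spread models and array weights, the replicate number as a block, the 7 arrays alone, and arrays left out. Promoter sequences are RefSeq's on GRCm38.p6, and 13 of the 20 genes with the largest rises and falls matched it by symbol.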

Additional observations from a re-analysis of the deposited data

Results flagged for a closer look

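A single PA array stood apart from the other 3 in 3 of 108 called genes, measured as its gap to the nearest array divided by the group's range. Chance alone flags about 1 in 20 groups. In Fbln1, the fibulin 1 gene, PA replicate 1 was the lowest, at 7.46 against 7.72 to 7.74 (gap over range 0.903). In Bckdhb, of branched-chain amino acid breakdown, PA replicate 3 was the highest, at 11.04 against 10.93 to 10.95 (0.864). In Slit2, an axon guidance ligand, PA replicate 3 was again the highest, at 8.61 against 8.39 to 8.42 (0.850).

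The effect of the double bond differed between chain lengths for BC023105. The difference of PA minus PMA less that of SA minus OA was -1.074 (limma adjusted p = 0.000611), with PA minus PMA at -1.06 and SA minus OA at 0.01.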

How the results depend on the processing

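Array medians, when centred, gave 1034 called genes and moved the split to 91 higher and 943 lower, 8.8% higher against 36.2% as deposited. That scaling moved the median of all genes from 0.02 to -0.06. Cyclic loess called 547 (239 higher, 308 lower), a trended robust spread 584, array weights per group 161 and per array 727. The 7 PA and OA arrays alone called 8 with limma, with 2742 at an unadjusted p under 0.05. Without PA replicates 2 and 4, an alternative chosen with earlier results of these data known, the count was 71, with 1620 at an unadjusted p under 0.05. Arrays left out singly gave 53 to 1541. The calls of SA against PMA went from 46 to 83 with weights per array, and left-out fits gave 20 (SA replicate 3) to 59, with 28 without SA replicate 2 and 29 without PMA replicate 1. The interaction kept 0 genes without the dimmest 33.3% of genes, where BC023105 was not among those tested and 830 genes had an unadjusted p under 0.05 with limma.

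Over the gene lists, 66 genes were called. This became 108 with centred medians, 39 with weights per group, 109 with weights per array, 5 with the 7 arrays alone and 24 without PA replicates 2 and 4. Arrays left out singly gave 17 (OA replicate 3) to 127 (PA replicate 1), with 29 without PA replicate 4 and 26 without OA replicate 2. Of probe sets with no symbol or several, 11 became 23 with cyclic loess, 7 with centred medians, 5 with weights per group, 58 with weights per array, 0 with the 7 arrays alone (limma; 1412 at an unadjusted p under 0.05) and 2 without PA replicates 2 and 4. Singly left-out arrays gave 1 (OA replicate 3) to 128 (PA replicate 1). The cause of these changes was not tested.

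With the replicate number as a block, the replicate block fit called 154 genes (57 higher, 97 lower, 150 of them among the 362), 39 genes of the lists and 2 further probe sets. The deviations of same-numbered PA and OA arrays correlated at 0.088, 0.117 and 0.115, the first under 0.1, so the numbers were not taken to pair the arrays. Each of these OA arrays correlated best with the PA array of its own number, a hint from the data and not the design.

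No value changed direction among called genes named. Over 259 named genes and 30 alternatives, 6599 values kept their side of the threshold, 755 values of called genes lost the call, 205 values of others gained one and 186 stayed uncalled while moving by more than the standard error.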

Other observations

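Several further gene families held called genes, in most cases more than 1. They were picked after the values were seen, so the counts describe them and support nothing. Of all genes, 1.23% were called lower with PA and 0.696% higher. Both odd-skipped transcription factors were lower with PA. Osr1, which marks connective tissue precursors, read 9.60, 9.79, 9.65 and 9.68 with PA and 10.19, 9.89 and 10.20 with OA, a difference of -0.41 (limma adjusted p = 0.00725; 0.0749 without OA replicate 3). Of 4 Eya coactivators Eya1 and Eya4 were lower, of 3 Meis homeobox factors Meis1 and Meis2, and of 7 class 3 semaphorins Sema3a and Sema3c. Sema3c, a secreted guidance cue, read 8.60, 8.83, 8.80 and 8.74 with PA and 9.19, 9.23 and 9.25 with OA (-0.48, adjusted p = 0.000187), and it passed whichever array was left out. Of 12 integrin alpha chains, Itga1, Itga6 and Itga8 were lower (-0.38, -0.26 and -0.48), while the median of the family was 0.01. Of 7 Slit ligands and Robo receptors Slit2 alone passed (-0.39, adjusted p = 0.0019).

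Among rises, 3 of 4 RNA genes of RNase P and MRP, which trim transfer and ribosomal RNA, were higher with PA: Rmrp by 0.31, Rprl2 by 0.41 and Rprl3 by 0.43. Of 15 WAP domain protease inhibitors, Slpi (0.29) and Wfdc21 (0.36) were higher, and of 13 S100 proteins S100a8 (0.33). The proton pump of acidic vesicles had 2 of 20 subunits higher, Atp6v0b and Atp6v1g1, and 2 of 71 mitochondrial ribosomal proteins were higher, Mrpl12 and Mrpl14. The medians of these 2 families were -0.008 and 0.028, beside 0.02 over all genes, of which 0.696% were called higher.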
